A study of Mus musculus with 12 samples.

Results

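The protein-coding genes *Disp3*, *Atoh8*, *Stum*, *Diras2*, *Tmem108*, *Slc6a6*, *Kcnk13*, *Pde11a*, *Mctp1* and *Inpp5j* were followed across all 12 samples as genes with more RNA under *ACVR1* R206H than under *ACVR1* WT, both with and without H3.1K27M. These 10 of the 54532 genes in the count tables were picked by name, with no stated threshold, from the same R206H comparisons in these samples, so their R206H differences are given as a description. Each name matched 1 Ensembl gene of GENCODE M21 (mm10, GRCm38). The label held for 8 of the 10 genes in every replicate. Without H3.1K27M the *ACVR1* R206H and *ACVR1* WT samples overlapped for *Stum*, whose means were nearly equal, and for *Slc6a6*.

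The cells were brainstem progenitors of C57BL/6 Nestin TVA mice with floxed p53, isolated at P3-P5 per the labels (p3 in the methods) and grown as neurospheres, floating clusters of progenitors, in serum-free medium with EGF and FGF2. Tv-a is the avian receptor that lets RCAS vectors enter, and the Nestin promoter limits it to nestin-expressing cells. The 4 groups of 3 samples received RCAS vectors for *ACVR1* WT alone, R206H *ACVR1* alone, *ACVR1* WT with H3.1K27M, or R206H *ACVR1* with H3.1K27M. All 4 groups carried the floxed p53 allele and an *ACVR1* vector, so no group was uninfected, and the labels name no Cre for these cultures. The labels number the replicates without saying whether they came from separate cultures. For its p3 neurosphere assays the paper used paired t tests on cell lines from separate litters, but it does not name the RNAseq there. The p values therefore measure the spread between these samples only. The share of infected cells was not analysed here.

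ACVR1, also called ALK2, is a type I receptor for bone morphogenetic proteins (BMPs). It phosphorylates SMAD1, SMAD5 and SMAD8, which enter the nucleus with SMAD4 and switch on targets such as the *Id* genes and the inhibitory *Smad6* and *Smad7*. R206H lies beside the kinase domain, is known from the bone disease fibrodysplasia ossificans progressiva, and makes the receptor more active. H3.1K27M replaces the lysine of histone H3.1 that Polycomb methylates, which lowers H3K27 trimethylation, and the mutations occur together in diffuse intrinsic pontine glioma. None of the 10 genes is a core component of the receptor pathway. They fall into a transcription factor (*Atoh8*), signalling enzymes (*Pde11a*, *Inpp5j*, *Diras2*), a transporter and a channel (*Slc6a6*, *Kcnk13*), and other membrane proteins (*Disp3*, *Tmem108*, *Mctp1*, *Stum*).

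RefSeq promoter windows (GRCm38.p6, 250 bases before to 50 bases after a transcript start) were found for 7 of the 10 genes, with a pair of windows for *Tmem108*, and for none of *Disp3*, *Slc6a6* and *Inpp5j*. They were searched on both strands for GGCGCC, a GC-rich element described for SMAD1 and SMAD5, which reads the same on both strands, and for CAGAC, which holds the SMAD-binding letters GTCTG on the other strand. No window held both. GGCGCC was in 1 of the 8 windows, against 11.9% of all 32851 windows, and CAGAC or GTCTG was in 3 of the 8, against 49.6% of all windows. The windows that held either one at the start GENCODE also gives, *Tmem108* and *Kcnk13*, are shown with that of *Pde11a*, whose RefSeq start lies 164 bases upstream of the GENCODE start, and with that of *Atoh8*, a gene known to respond to BMP signals, whose window held neither. All are written 5′ to 3′ on the gene's own strand with the matched letters in capitals.
Tmem108, chr9:103761788-103762087, minus strand: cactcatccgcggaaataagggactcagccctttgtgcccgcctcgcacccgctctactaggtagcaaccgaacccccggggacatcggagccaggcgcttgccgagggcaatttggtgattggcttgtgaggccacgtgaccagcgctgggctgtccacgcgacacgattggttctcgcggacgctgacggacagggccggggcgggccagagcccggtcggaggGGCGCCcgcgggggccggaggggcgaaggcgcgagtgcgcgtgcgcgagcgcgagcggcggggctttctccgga
Kcnk13, chr12:99964249-99964548, plus strand: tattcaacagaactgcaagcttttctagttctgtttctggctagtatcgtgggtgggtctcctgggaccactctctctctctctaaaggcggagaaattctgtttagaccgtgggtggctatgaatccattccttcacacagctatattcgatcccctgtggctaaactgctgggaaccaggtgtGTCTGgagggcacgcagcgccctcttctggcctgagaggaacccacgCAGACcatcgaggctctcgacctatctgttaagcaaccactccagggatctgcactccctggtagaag
Pde11a, chr2:76338889-76339188, minus strand: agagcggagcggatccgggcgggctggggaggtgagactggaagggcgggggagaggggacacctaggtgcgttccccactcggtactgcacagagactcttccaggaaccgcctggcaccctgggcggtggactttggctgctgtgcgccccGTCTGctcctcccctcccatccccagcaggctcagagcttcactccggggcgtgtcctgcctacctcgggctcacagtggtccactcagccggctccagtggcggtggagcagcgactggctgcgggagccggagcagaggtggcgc
Atoh8, chr6:72235528-72235827, minus strand: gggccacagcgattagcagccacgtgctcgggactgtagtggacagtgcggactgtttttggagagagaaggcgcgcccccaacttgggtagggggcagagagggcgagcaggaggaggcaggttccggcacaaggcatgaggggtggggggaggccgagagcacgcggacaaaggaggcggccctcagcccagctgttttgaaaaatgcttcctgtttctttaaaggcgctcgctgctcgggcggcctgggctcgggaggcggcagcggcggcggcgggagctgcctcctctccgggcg
The *Tmem108* window was the richest in G and C of the 8, at 70.3%, and that of *Mctp1*, at an internal start, the poorest, at 40.7%. The median over all windows was 52.67%. The matches describe letters in these windows only.

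Libraries held between 19315020 and 26456257 counts, and levels are given as CPM, the count scaled to a common library size with TMM factors. The 3 *ACVR1* WT samples differed from each other more than those of any other group. Their mean Pearson correlation with the samples of their own group was 0.968, 0.984 and 0.976, against at least 0.996 in the other groups, and their biological coefficient of variation was 0.274, against 0.045 to 0.059. All 8 progenitor markers were detected in every group, with summed levels of 5950 to 7860 CPM. The 6 astrocyte markers summed to 3328, 8622 and 12590 CPM in *ACVR1* WT replicates 1, 2 and 3, and to 3097 to 7028 CPM in the other 9 samples. The 6 microglia markers summed to 3.99 to 20.1 CPM in *ACVR1* WT and to 6.11 to 7.42 CPM in *ACVR1* R206H, but to 1.11 to 1.51 CPM and 1.94 to 2.96 CPM in the respective groups with H3.1K27M. Fibroblast and mural markers, 6 in all, summed to 2.35 to 4.46 CPM without and 8.17 to 13.4 CPM with H3.1K27M, and the 4 endothelial markers to 1.13 to 4.87 CPM over all samples. Oligodendrocyte-lineage markers summed to 2383 to 3298 CPM without and 3481 to 4227 CPM with H3.1K27M, mostly *Olig1* and *Olig2*. Neuron markers summed to 1165 to 1713 CPM and 617.7 to 794.7 CPM, mostly *Map2*, at 1116 to 1571 CPM and 568.7 to 743.7 CPM. *Slc17a6* had no count in any sample, where 3 counts correspond to 0.155 CPM in the smallest library. With H3.1K27M, averaged over both *ACVR1* forms, 5 of the 8 oligodendrocyte-lineage markers were higher and 1 lower in edgeR. Of 7 neuron markers tested 1 was higher and 3 lower, beside 4067 higher and 4282 lower of all 15445 genes. The part of these cell types in the levels of the 10 genes was not tested. In bulk RNA, fewer cells of a type and less RNA per cell cannot be told apart. Values of the 10 genes and of the BMP targets that lost or gained a call, changed sign or moved by over 1.5 times without *ACVR1* WT replicate 1 are given both ways, as are the counts of the gene lists.

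To place the genes beside the vector, *Acvr1* (ENSMUSG00000026836) was read first. Its level was 53.6, 46.4 and 52.7 CPM in *ACVR1* WT, 113.7, 82.0 and 85.9 CPM in *ACVR1* R206H, 170.1, 162.3 and 364.9 CPM in *ACVR1* WT and H3.1K27M, and 1000.4, 562.1 and 1058.5 CPM in *ACVR1* R206H and H3.1K27M. The groups did not overlap, and the *Acvr1* count was highest in the same group as the 10 genes. Every group received human *ACVR1*, and the share of these counts that came from the vector, or the base at the mutated codon, cannot be read from a count table. The mutant receptor and a higher *Acvr1* count cannot be told apart in the R206H comparisons.

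All 10 genes were highest in cells with both mutations. For each of the 10 genes, all 3 samples with *ACVR1* R206H and H3.1K27M lay above the other 9 samples, a pattern that 8.75% of the 15445 genes tested over all samples showed and to which the choice of the genes contributed. The lowest group mean was *ACVR1* WT for 7 genes, and *ACVR1* WT and H3.1K27M for *Stum*, *Slc6a6* and *Inpp5j*. The panels of CPM by sample show this order for each gene.

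**Figure D1:**
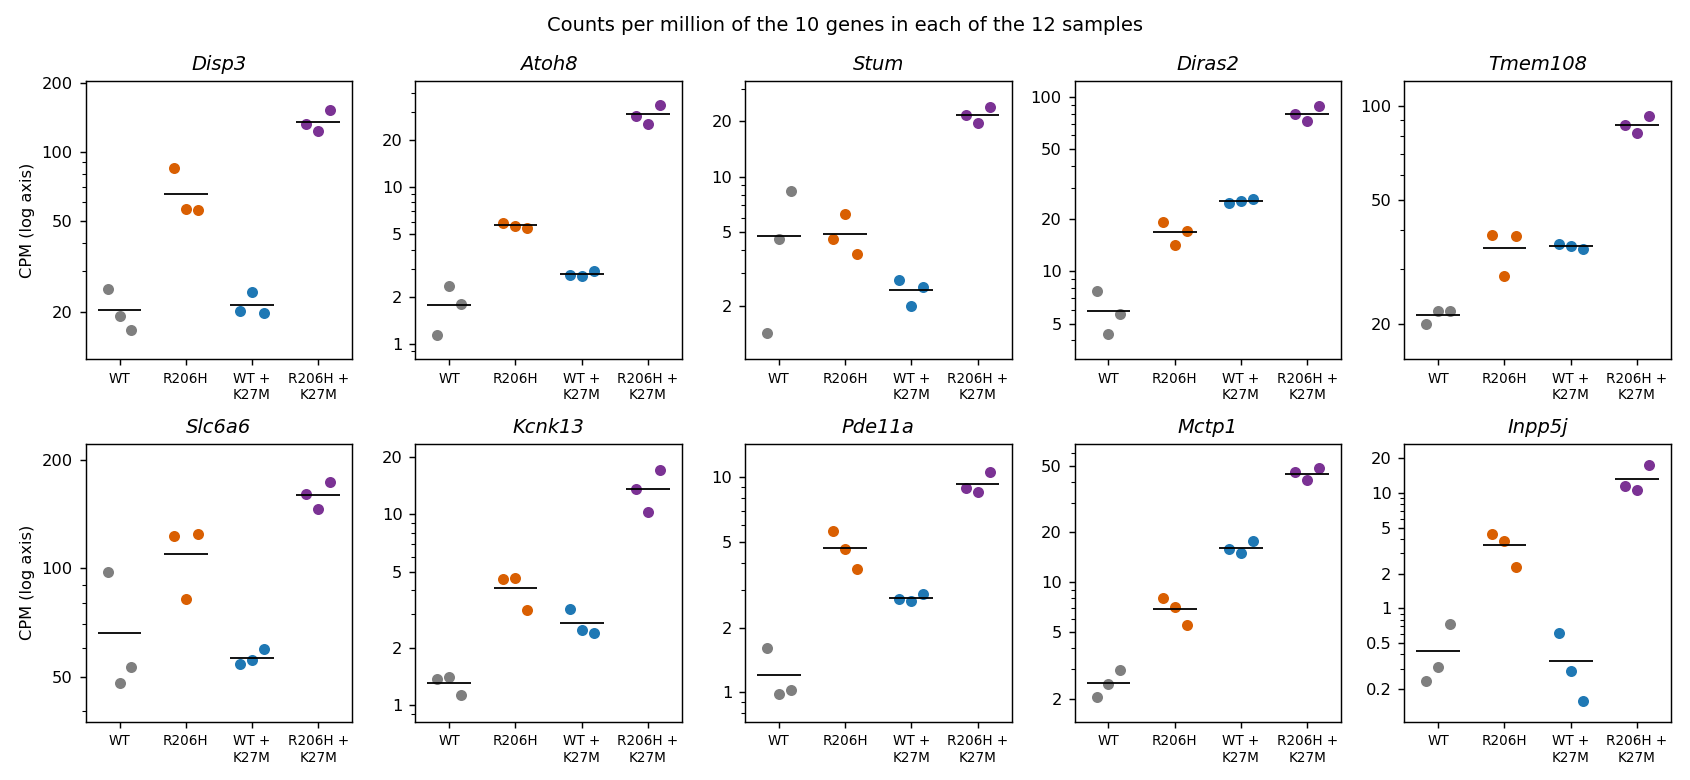
CPM on a log axis in each of the 12 samples, 1 panel per gene, with 1 point per sample and a line at each group's mean. K27M stands for H3.1K27M. In all 10 panels the 3 samples with *ACVR1* R206H and H3.1K27M lie above the other 9, and the *Stum* and *Slc6a6* panels show overlap between *ACVR1* WT and *ACVR1* R206H.

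*Atoh8* (ENSMUSG00000037621, chr6:72206177-72235577, minus strand) encodes a basic helix-loop-helix transcription factor. Its level was 1.14, 2.34 and 1.81 CPM in *ACVR1* WT and 5.91, 5.64 and 5.53 CPM in *ACVR1* R206H. It was 2.74, 2.72 and 2.93 CPM in *ACVR1* WT and H3.1K27M and 28.4, 25.3 and 33.4 CPM in *ACVR1* R206H and H3.1K27M. Neither pair of groups overlapped. The R206H log2 fold change was 1.70 ± 0.262 (standard error, n = 3 per group) without H3.1K27M and 3.38 ± 0.124 with it, or 3.23-fold and 10.4-fold as ratios of group means.

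*Pde11a* (ENSMUSG00000075270, chr2:75989141-76338774, minus strand) encodes a phosphodiesterase that degrades cAMP and cGMP. Its level was 1.61, 0.987 and 1.03 CPM in *ACVR1* WT, 5.61, 4.66 and 3.73 CPM in *ACVR1* R206H, 2.70, 2.67 and 2.85 CPM in *ACVR1* WT and H3.1K27M, and 8.89, 8.58 and 10.6 CPM in *ACVR1* R206H and H3.1K27M. Its R206H log2 fold change was 1.95 ± 0.271 without and 1.78 ± 0.126 with H3.1K27M.

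*Inpp5j* (ENSMUSG00000034570, chr11:3494375-3504821, minus strand) encodes an inositol polyphosphate 5-phosphatase, an enzyme that acts on phosphoinositides such as those of the PI3K pathway. It was close to the detection limit with *ACVR1* WT, at 0.237, 0.312 and 0.734 CPM (5, 6 and 15 counts) without H3.1K27M and 0.614, 0.286 and 0.159 CPM (15, 6 and 4 counts) with it. With *ACVR1* R206H it was 4.46, 3.83 and 2.28 CPM without H3.1K27M and 11.5, 10.7 and 17.6 CPM with it. These were the largest R206H log2 fold changes of the 10, 3.03 ± 0.465 without and 5.22 ± 0.324 with H3.1K27M, and they rest on the few counts of the *ACVR1* WT groups. *Inpp5j* shares exon bases with *Pla2g3*, and reads that fell on both were not counted.

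*Diras2* (ENSMUSG00000047842, chr13:52504380-52531279, minus strand) encodes a small GTPase of the Ras superfamily. Its level was 7.69, 4.36 and 5.68 CPM in *ACVR1* WT, 19.1, 14.03 and 16.9 CPM in *ACVR1* R206H, 24.5, 25.1 and 26.04 CPM in *ACVR1* WT and H3.1K27M, and 79.4, 72.4 and 88.2 CPM in *ACVR1* R206H and H3.1K27M. The *ACVR1* WT and H3.1K27M samples all lay above the *ACVR1* R206H samples. The R206H log2 fold change was 1.504 ± 0.235 without and 1.67 ± 0.0704 with H3.1K27M.

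*Slc6a6* (ENSMUSG00000030096, chr6:91684053-91759066, plus strand) encodes the taurine transporter. Its level was 97.7, 47.9 and 53.0 CPM in *ACVR1* WT and 122.5, 81.8 and 124.2 CPM in *ACVR1* R206H, so that *ACVR1* WT replicate 1 lay above *ACVR1* R206H replicate 2. With H3.1K27M it was 54.3, 55.6 and 59.5 CPM in *ACVR1* WT and 160.1, 145.4 and 172.9 CPM in *ACVR1* R206H, without overlap. For *Slc6a6* the R206H log2 fold change was 0.73 ± 0.309 without and 1.504 ± 0.0621 with H3.1K27M. Leaving out *ACVR1* WT replicate 1, it was 1.13 ± 0.175 without H3.1K27M.

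*Kcnk13* (ENSMUSG00000045404, chr12:99964499-100062682, plus strand) encodes a tandem-pore potassium channel, THIK-1, which in brain is known from microglia. Its level was 1.38, 1.40 and 1.13 CPM in *ACVR1* WT, 4.56, 4.66 and 3.15 CPM in *ACVR1* R206H, 3.19, 2.48 and 2.38 CPM in *ACVR1* WT and H3.1K27M, and 13.5, 10.2 and 17.0 CPM in *ACVR1* R206H and H3.1K27M. The summed microglia markers were lowest in the groups with H3.1K27M, and *Kcnk13* was highest in cells with both mutations. The part of microglia in its level was not tested. Of the markers, *C1qa* had at most 1 count in each of the 6 samples with H3.1K27M. *P2ry12*, a microglial purine receptor and the microglia marker with enough counts to be tested there, had 25, 19 and 32 counts in *ACVR1* WT and H3.1K27M and 48, 36 and 67 counts in *ACVR1* R206H and H3.1K27M. It rose with *ACVR1* R206H there by 0.99 ± 0.240 on the log2 scale (adjusted p = 0.011, edgeR), the direction of *Kcnk13*, and this call was lost without *ACVR1* WT and H3.1K27M replicate 2, without *ACVR1* R206H and H3.1K27M replicate 3 and in the fit of all 12 samples. Without H3.1K27M its value was -0.10 ± 0.287. The R206H log2 fold change of *Kcnk13* was 1.67 ± 0.225 without and 2.35 ± 0.191 with H3.1K27M.

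*Disp3* (ENSMUSG00000041544, chr4:148240264-148287965, minus strand) encodes a multi-pass membrane protein of the Dispatched and Patched type with a sterol-sensing domain. It was 25.01, 19.2 and 16.6 CPM in *ACVR1* WT and 84.5, 56.1 and 55.7 CPM in *ACVR1* R206H. It was 20.1, 24.5 and 19.7 CPM in *ACVR1* WT and H3.1K27M and 131.6, 122.6 and 152.0 CPM in *ACVR1* R206H and H3.1K27M. The *ACVR1* WT samples with and without H3.1K27M overlapped, whereas the *ACVR1* R206H samples did not. *Disp3* had an R206H log2 fold change of 1.70 ± 0.227 without and 2.67 ± 0.0902 with H3.1K27M.

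*Tmem108* (ENSMUSG00000042757, chr9:103482947-103761837, minus strand) encodes a single-pass membrane protein studied mainly in neurons. Its level was 20.0, 22.02 and 22.1 CPM in *ACVR1* WT, 38.5, 28.6 and 38.3 CPM in *ACVR1* R206H, 36.1, 35.6 and 34.9 CPM in *ACVR1* WT and H3.1K27M, and 86.9, 81.7 and 92.9 CPM in *ACVR1* R206H and H3.1K27M. The samples with *ACVR1* R206H alone overlapped those with *ACVR1* WT and H3.1K27M. The R206H log2 fold change was 0.73 ± 0.135 without and 1.30 ± 0.0544 with H3.1K27M, and that with H3.1K27M was the smallest of the 10. *Tmem108* and *Slc6a6* each share exon bases with an unnamed gene model, *Gm16252* and *Gm44981* respectively.

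*Mctp1* (ENSMUSG00000021596, chr13:76384535-77031810, plus strand) encodes a membrane protein with several calcium-binding C2 domains. It was 2.04, 2.44 and 2.98 CPM in *ACVR1* WT, 8.06, 7.09 and 5.57 CPM in *ACVR1* R206H, 15.8, 14.9 and 17.7 CPM in *ACVR1* WT and H3.1K27M, and 45.8, 41.0 and 48.4 CPM in *ACVR1* R206H and H3.1K27M. As for *Diras2*, all samples with H3.1K27M lay above all samples without it. For *Mctp1* the R206H log2 fold change was 1.48 ± 0.218 without and 1.48 ± 0.0788 with H3.1K27M.

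*Stum* (ENSMUSG00000053963, chr1:180432387-180483504, minus strand), named after a fly gene needed for mechanical sensing, went against the label without H3.1K27M. Its level was 1.42, 4.62 and 8.37 CPM in *ACVR1* WT and 4.61, 6.26 and 3.83 CPM in *ACVR1* R206H, with overlap and a log2 fold change of 0.039 ± 0.578. The *ACVR1* WT samples were spread in the same order as their summed astrocyte markers, whose part in the *Stum* level was not tested. With H3.1K27M *Stum* was 2.74, 2.00 and 2.54 CPM in *ACVR1* WT and 21.6, 19.5 and 23.9 CPM in *ACVR1* R206H, a log2 fold change of 3.15 ± 0.122. Without *ACVR1* WT replicate 1 the R206H difference without H3.1K27M was -0.40 ± 0.286, and without *ACVR1* R206H replicate 2 it was -0.17 ± 0.693.

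Per kilobase of exon the 10 genes ranged from 1.80 CPM (*Pde11a*) to 24.8 CPM (*Disp3*) with both mutations, with *Slc6a6* at 18.9 and *Diras2* at 16.7. In *ACVR1* WT cells *Slc6a6* was highest, at 7.83 CPM per kilobase, followed by *Disp3* at 3.72, and *Inpp5j* was lowest at 0.084.

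The study asked how *ACVR1* R206H acts alone and in combination with H3.1K27M. Without H3.1K27M, the *ACVR1* R206H samples all lay above the *ACVR1* WT samples for 8 of the 10 genes, against 4.38% of all genes tested. With H3.1K27M they did so for all 10, against 18.4%, and in both backgrounds for 8, against 2.15%. The median log2 fold change of the 10 genes was 1.59 without and 2.06 with H3.1K27M, beside -0.013 and 0.0014 over all genes tested. With H3.1K27M, edgeR's quasi-likelihood test called all 10 higher, as it did 11.4% of the 15672 genes tested, and DESeq2 called all 10 higher, as it did 9.02%. Without H3.1K27M the same test called none of the 10 and 0% of the 15066 genes in the upward direction, with 534 genes at an unadjusted p under 0.05 in either direction. DESeq2, which the study used, called 8 of the 10 higher, all but *Stum* and *Slc6a6*, beside 0.166% of all genes. With all 12 samples in one edgeR fit, 11 genes (0.0712%) were called higher, 7 of them among the 10 (*Disp3*, *Atoh8*, *Diras2*, *Tmem108*, *Kcnk13*, *Pde11a* and *Mctp1*). Without *ACVR1* WT replicate 1, edgeR called 9 of the 10 higher, all but *Stum*, as it did 12.1% of the 15087 genes tested. The log2 fold change without that sample was 1.88 ± 0.200 for *Disp3*, 1.47 ± 0.181 for *Atoh8*, 1.74 ± 0.180 for *Diras2*, 0.69 ± 0.137 for *Tmem108* and 1.71 ± 0.262 for *Kcnk13*. For *Pde11a* it was 2.21 ± 0.259, for *Mctp1* 1.35 ± 0.212 and for *Inpp5j* 2.73 ± 0.436, so that these 8 moved by less than 1.5 times from their values with it. Since these contrasts chose the genes, the counts describe them and support nothing further.

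Cell type markers also moved with *ACVR1* R206H in the cells with H3.1K27M, where all 10 genes were called higher. Of the 37 markers tested, 15 were higher and 10 lower, beside 11.4% and 8.95% of all genes, and with all 12 samples in one fit 3 were higher and none lower, beside 2.28% and 0.57% of all genes. Of the 8 progenitor markers 6 were higher and 1, *Nes*, was lower (-0.26 ± 0.0387 on the log2 scale). The progenitor sums were 6574 to 6920 CPM in *ACVR1* WT and H3.1K27M and 7522 to 7860 CPM in *ACVR1* R206H and H3.1K27M. In these groups *Vim* alone averaged 1826 CPM and 2592 CPM. Of the 6 astrocyte markers 3 were higher and 1 lower, and their sums were 3097 to 3183 CPM and 4038 to 4221 CPM. Of the 8 oligodendrocyte-lineage markers 6 were lower and none higher, with a median log2 fold change of -0.302, and their sums were 3593 to 4227 CPM and 3481 to 3659 CPM, which overlapped. Of the 7 neuron markers tested 2 were higher and 2 lower, and their sums were 754.1 to 794.7 CPM and 617.7 to 684 CPM. The endothelial sums were 1.33 to 2.26 CPM and 2.73 to 4.87 CPM with 1 of the 2 markers tested higher, and the fibroblast and mural sums 8.17 to 9.77 CPM and 10.65 to 13.4 CPM with 2 of the 5 markers tested higher in edgeR and none in DESeq2. The endothelial call was lost without *ACVR1* R206H and H3.1K27M replicate 3. Without H3.1K27M no marker passed in edgeR or DESeq2, and without *ACVR1* WT replicate 1, 2 of 36 were higher and 15 lower in edgeR, beside 12.1% and 11% of all genes. The part of these shifts in the values of the 10 genes was not tested.

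For some of the 10 genes the R206H log2 fold change was larger with H3.1K27M than without. The log2 fold change with H3.1K27M minus that without was 3.11 ± 0.591 for *Stum* (standard error from both fits), 2.19 ± 0.566 for *Inpp5j*, 1.68 ± 0.290 for *Atoh8* and 0.97 ± 0.244 for *Disp3*. It was 0.77 ± 0.315 for *Slc6a6*, 0.68 ± 0.295 for *Kcnk13* and 0.57 ± 0.145 for *Tmem108*. For *Diras2* (0.17 ± 0.245), *Mctp1* (0.0035 ± 0.232) and *Pde11a* (-0.17 ± 0.299) the difference was smaller than its standard error. Without *ACVR1* WT replicate 1 it was 0.37 ± 0.186 for *Slc6a6*, 0.79 ± 0.219 for *Disp3*, -0.069 ± 0.193 for *Diras2*, 0.13 ± 0.226 for *Mctp1* and -0.44 ± 0.288 for *Pde11a*. These values come from the contrasts that chose the genes and were not tested. The *Acvr1* count itself had an R206H log2 fold change of 0.89 ± 0.142 without and 1.91 ± 0.284 with H3.1K27M. Its part in these differences was not tested. The log2 fold changes with and without H3.1K27M are plotted side by side.

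**Figure D2:**
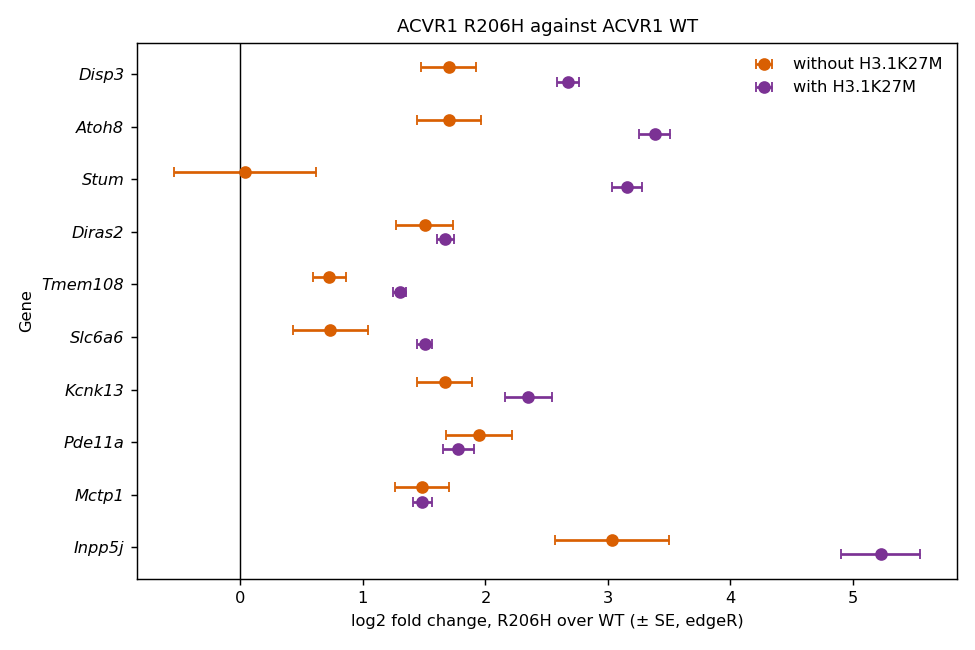
Log2 fold change of *ACVR1* R206H over *ACVR1* WT for each gene, without (orange) and with (purple) H3.1K27M, with bars of 1 standard error from edgeR (3 samples per group). The points nearly coincide for *Mctp1*, *Diras2* and *Pde11a*, lie far apart for *Stum* and *Inpp5j*, and the *Stum* point without H3.1K27M sits at 0.039.

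H3.1K27M was then compared with its absence, averaged over both *ACVR1* forms in 1 fit of all 12 samples. All 4 groups carry weight in this contrast and entered the R206H contrasts that chose the genes, and the *ACVR1* WT samples varied more than the others, so genes chosen for low values there also tend to be higher on average with H3.1K27M. The calls and p values are therefore not independent of the choice of the genes. Of the 10 genes, 7 were higher with H3.1K27M and none lower, where 26.3% of 15445 genes were called higher (edgeR's quasi-likelihood test, Benjamini-Hochberg adjusted p under 0.05). The largest differences were in *Mctp1*, with a log2 fold change of 2.70 ± 0.112 (adjusted p = 2.5e-08, edgeR), and *Diras2*, with 2.18 ± 0.121 (adjusted p = 1.7e-07, edgeR). *Atoh8* rose by 1.51 ± 0.137, *Kcnk13* by 1.38 ± 0.163, *Pde11a* by 1.09 ± 0.142, *Tmem108* by 1.02 ± 0.0738 and *Disp3* by 0.56 ± 0.132, with adjusted p values from edgeR of at most 0.0039. The 3 genes that did not pass were *Inpp5j* (0.82 ± 0.364, adjusted p = 0.078, edgeR), *Stum* (0.58 ± 0.313, adjusted p = 0.14, edgeR) and *Slc6a6* (0.16 ± 0.168, adjusted p = 0.46, edgeR). Each of these 3 passed in at least 1 alternative fit, *Slc6a6* at 0.36 ± 0.0954 without *ACVR1* WT replicate 1 (adjusted p = 0.0046, edgeR), *Stum* at 0.94 ± 0.248 without *ACVR1* WT replicate 3 (adjusted p = 0.0084, edgeR, but 0.38 ± 0.164 without replicate 1) and *Inpp5j* in DESeq2 (adjusted p = 0.027). The median over the 10 genes was 1.06, beside -0.023 over all genes tested.

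Within *ACVR1* WT cells, 5 of the 9 genes tested were higher with H3.1K27M, where 12.6% of 15385 genes were called higher, and *Inpp5j* had too few counts to be tested. These were *Mctp1* at 2.71 ± 0.176 (adjusted p = 0.00095, edgeR), *Diras2* at 2.10 ± 0.207 (adjusted p = 0.0023, edgeR), *Pde11a* at 1.19 ± 0.234 (adjusted p = 0.017, edgeR), *Kcnk13* at 1.05 ± 0.206 (adjusted p = 0.016, edgeR) and *Tmem108* at 0.75 ± 0.0779 (adjusted p = 0.0026, edgeR). The calls of *Kcnk13* and *Pde11a* were lost without *ACVR1* WT replicate 2 or without any 1 of the *ACVR1* WT and H3.1K27M replicates, with adjusted p values of 0.055 to 0.075 from edgeR. *Atoh8* (0.68 ± 0.269), *Disp3* (0.093 ± 0.176) and *Slc6a6* (-0.22 ± 0.268) did not pass. In the fit of all 12 samples *Atoh8* passed, at 0.67 ± 0.210 (adjusted p = 0.025, edgeR), and without *ACVR1* WT replicate 1 *Disp3* had 0.27 ± 0.122 and *Atoh8* 0.45 ± 0.195, neither past the threshold. For *Stum* the value was -0.97 ± 0.575 (adjusted p = 0.27, edgeR), which became -1.40 ± 0.267 (adjusted p = 0.0028, edgeR) without *ACVR1* WT replicate 1. *Slc6a6* turned to 0.17 ± 0.0725 without that library (adjusted p = 0.077, edgeR).

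Within *ACVR1* R206H cells, all 10 genes were higher with H3.1K27M, where 29.1% of 15482 genes were called higher. The log2 fold change ran from 0.55 ± 0.124 for *Slc6a6* (adjusted p = 0.0025, edgeR) to 2.72 ± 0.110 for *Mctp1* (adjusted p = 3.8e-09, edgeR). *Atoh8* differed by 2.36 ± 0.114, *Diras2* by 2.27 ± 0.100, *Stum* by 2.16 ± 0.141 and *Inpp5j* by 1.94 ± 0.236. *Kcnk13* (1.74 ± 0.196), *Tmem108* (1.32 ± 0.0946), *Disp3* (1.06 ± 0.135) and *Pde11a* (1.02 ± 0.148) followed. The call of *Slc6a6* was lost when all 12 samples shared one fit (0.54 ± 0.237, adjusted p = 0.094, edgeR). Both of these comparisons use groups that also entered the choice of the genes, so their calls are not independent of it. The *Acvr1* count was likewise higher with H3.1K27M, by 2.20 ± 0.332 in *ACVR1* WT and 3.23 ± 0.209 in *ACVR1* R206H cells, and its part in these differences was not tested.

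**Figure D3:**
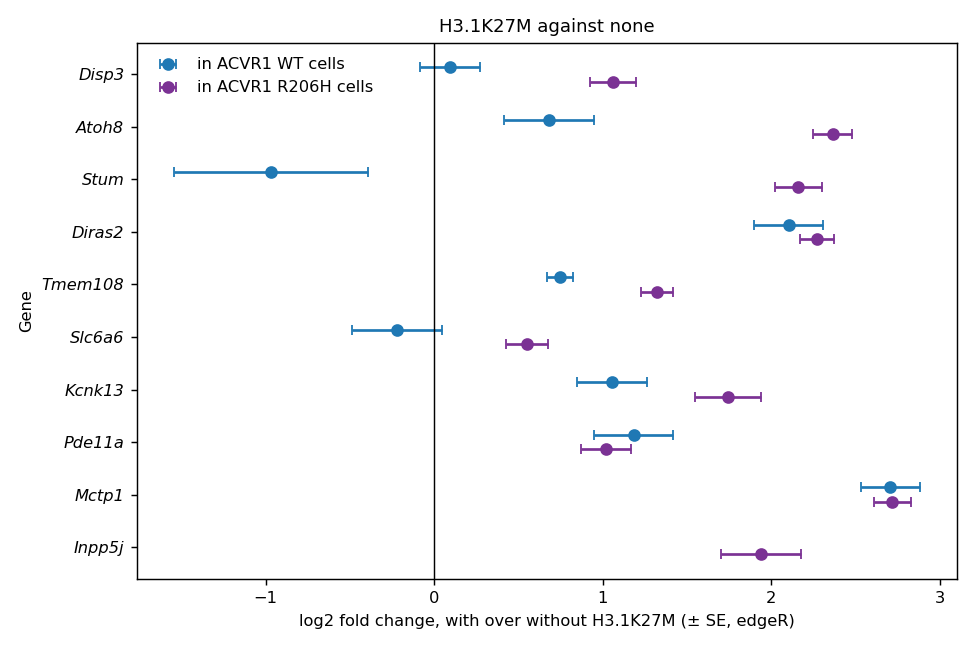
Log2 fold change with over without H3.1K27M for each gene in *ACVR1* WT cells (blue) and *ACVR1* R206H cells (purple), with bars of 1 standard error from edgeR (3 samples per group). All 10 purple points lie above 0, *Stum* and *Slc6a6* have blue points below 0, and *Inpp5j* has no blue point because its counts were too low to be tested.

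The replicates with both mutations ranked alike for all 10 genes. In *ACVR1* R206H and H3.1K27M, replicate 2 was lowest and replicate 3 highest for each of the 10 genes and for *Acvr1*, an order shown by 19.1% of the 15445 genes tested. The spread was small for most of the genes and widest for *Inpp5j* (10.7 to 17.6 CPM) and *Kcnk13* (10.2 to 17.0 CPM), while *Acvr1* ranged from 562.1 to 1058.5 CPM. In *ACVR1* R206H, replicate 1 was highest for *Acvr1* and for 7 of the 10 genes, against 30.7% of all genes. In *ACVR1* WT and H3.1K27M, replicate 3 had 364.9 CPM of *Acvr1*, above the 170.1 and 162.3 CPM of the others, and was highest for 5 of the 10 genes, against 33% of all genes. In *ACVR1* WT, replicate 1 was highest for *Acvr1* (53.6 CPM, against 46.4 and 52.7 CPM). Of the 10 genes only *Disp3*, *Diras2*, *Slc6a6* and *Pde11a* were highest there. The orders were noticed in the data, rest on 3 libraries each and were not tested.

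**Figure D4:**
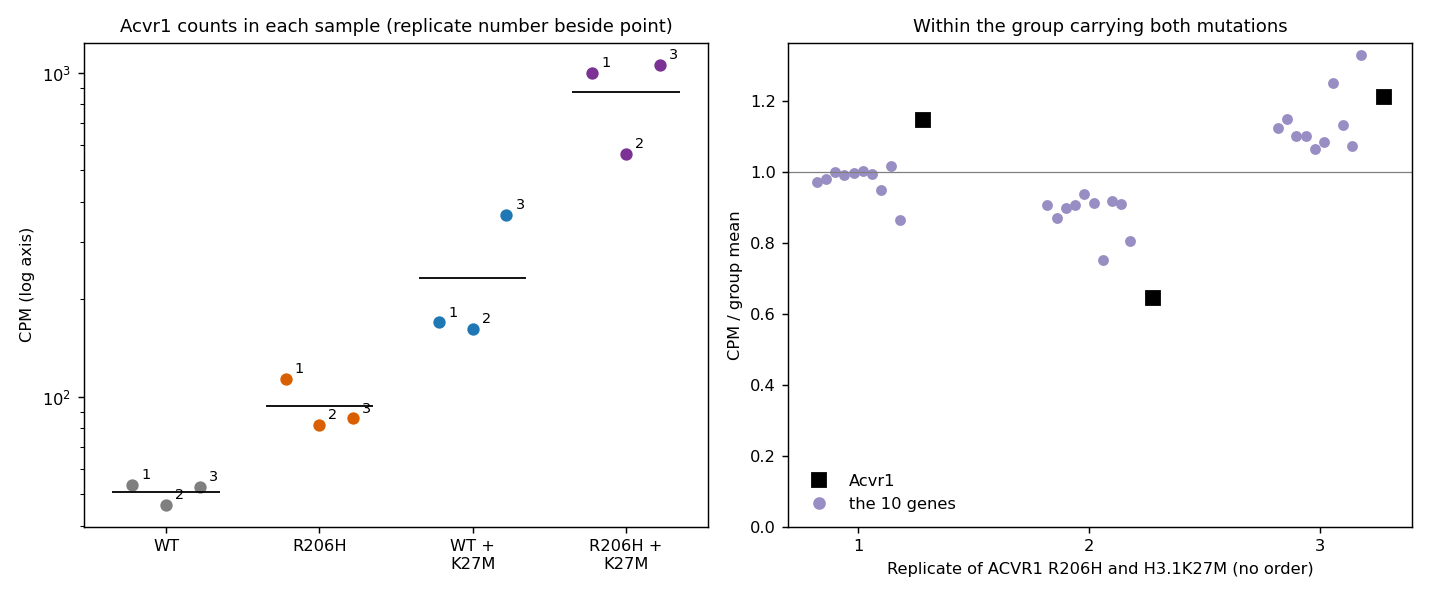
Left, *Acvr1* CPM on a log axis in each sample, with the replicate number beside each point and a line at each group's mean. Right, CPM divided by the group mean in the 3 samples with *ACVR1* R206H and H3.1K27M for the 10 genes (circles) and *Acvr1* (squares), where replicate 2 is lowest and replicate 3 highest for all 11.

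As a reference for BMP signalling, 16 known BMP target genes were listed, of which 13 had enough counts. Without H3.1K27M none passed edgeR's test, 4 had an unadjusted p under 0.05 and 1, *Id1*, passed DESeq2, with a median log2 fold change of 0.35. Without *ACVR1* WT replicate 1, 5 of the 13 were higher and 2 lower in edgeR, beside 12.1% and 11% of all genes, with a median of 0.257. With H3.1K27M, 12 of the 13 were higher with *ACVR1* R206H and none lower, with a median of 1.70, beside 11.4% of all genes called higher. *Id1*, an inhibitor of helix-loop-helix transcription factors, was 12.6, 11.9 and 21.97 CPM in *ACVR1* WT and 40.4, 34.2 and 32.4 CPM in *ACVR1* R206H. It was 13.6, 12.4 and 13.8 CPM in *ACVR1* WT and H3.1K27M and 102.8, 96.5 and 117.8 CPM in *ACVR1* R206H and H3.1K27M. Its R206H log2 fold change was 1.21 ± 0.252 without and 2.99 ± 0.0804 with H3.1K27M, and in neither background did the *ACVR1* R206H and *ACVR1* WT samples overlap. *Smad6*, an inhibitory SMAD, had 0.92 without and 2.02 with H3.1K27M. *Id3* (0.67 and 2.99), *Id2* (0.40 and 2.15), *Id4* (-0.34 and 1.84), the BMP antagonist *Nog* (1.04 and 2.96), *Smad9* (0.74 and 1.70), *Smad7* (0.35 and 1.11) and the pseudoreceptor *Bambi* (-0.001 and 0.91) completed those named. Several of the values without H3.1K27M rest on *ACVR1* WT replicate 1. *Id4* was 14.7 CPM in that sample against 65.4 and 89.7 CPM in the others, and *Id2* was 156.8 CPM against 191.6 and 244.2 CPM. Without it the log2 fold change was -0.80 ± 0.175 for *Id4* (adjusted p = 0.016, edgeR), and *Msx1* was the other target called lower, at -0.91 ± 0.176 against -0.53 ± 0.447 with it. The 5 called higher without that sample were *Id1* (1.08 ± 0.224), *Id3* (0.51 ± 0.128), *Smad6* (1.30 ± 0.392), *Nog* (0.74 ± 0.201) and *Bmper* (0.49 ± 0.117), with adjusted p values from edgeR of 0.013 to 0.048. *Id2* (0.26 ± 0.0979), *Smad9* (0.47 ± 0.177) and *Smad7* (0.20 ± 0.142) did not pass, nor did *Bambi* (-0.030 ± 0.268), *Hey1* (0.040 ± 0.0603, or 0.10 with that sample) or *Msx2* (-0.056 ± 0.327, or 0.065 with it). The log2 fold change was larger with H3.1K27M for 12 of the 13 targets, with or without that sample. For *Bmper* it was 0.30 without and 0.22 with H3.1K27M. The difference was not tested. For the *Acvr1* count the R206H log2 fold change was 0.89 without and 1.91 with H3.1K27M, and its part in the BMP target values was not tested.

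The closest relatives of the 10 genes did not move in one direction. Of 42 paralogs and family members, 36 were tested without H3.1K27M, none passed edgeR's test or DESeq2, and 1 had an unadjusted p under 0.05 in edgeR. Without *ACVR1* WT replicate 1, 7 of the 36 were higher and 6 lower in edgeR, beside 12.1% and 11% of all genes. Of 34 tested with H3.1K27M, 9 were higher and 5 lower with *ACVR1* R206H, where 11.4% of all genes were higher and 8.95% lower, with a median log2 fold change of 0.076. Among the *Slc6* transporters, *Slc6a8*, which carries creatine, rose by 0.93 on the log2 scale and *Slc6a17* by 0.38. The GABA transporter *Slc6a11* fell by 1.22, and the glycine transporter *Slc6a9* fell by 0.51. Of the phosphodiesterases, *Pde1c* rose by 0.50 and *Pde4b* fell by 0.25, and *Syt1*, a synaptic calcium sensor with C2 domains as in *Mctp1*, rose by 1.06. *Disp1* (-0.078) and *Disp2* (-0.082), relatives of *Disp3*, did not pass, nor did *Diras1* (0.20) or *Mctp2* (0.22).

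The genes most like the average profile of the 10 were found by the Pearson correlation of log2 CPM over the 12 samples with the mean standardized profile. The 5 closest outside the list were *Selenom* (r = 0.988), *Aqp11* (r = 0.979), *F11r* (r = 0.978), *Mmgt2* (r = 0.974) and *Fam196b* (r = 0.972). Within the list r ran from 0.826 for *Stum* to 0.988 for *Kcnk13*, and each member contributed to the profile. The 12 points fall into 4 groups, so that r mostly describes the order of the groups. *Selenom*, a selenoprotein of the endoplasmic reticulum, was 7.55, 4.62 and 6.46 CPM in *ACVR1* WT, 15.8, 12.8 and 12.6 CPM in *ACVR1* R206H, 9.13, 8.57 and 7.29 CPM in *ACVR1* WT and H3.1K27M, and 33.2, 34.04 and 44.3 CPM in *ACVR1* R206H and H3.1K27M. *Fam196b* had R206H log2 fold changes of 1.99 ± 0.470 without and 2.54 ± 0.224 with H3.1K27M, the largest of the 5, and *Mmgt2* had the smallest, 0.36 ± 0.120 and 0.69 ± 0.0706.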

How the data were processed

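RNAseq was analysed from 12 samples of infected brainstem neurospheres, 3 in each of 4 groups taken from the sample labels. Paired-end reads had been aligned by the authors to mm10 (GRCm38) in Galaxy with RNA-STAR (STAR 2.6.0b-1 per the submitters' processing notes). HTSeq-count assigned them to an Ensembl GTF in union mode, ignoring strand, at an alignment quality of at least 10, and left out reads that matched several places or genes. The deposited counts per gene were raw, with 1 table per sample. Because strand was not used, reads from antisense genes cannot be told apart.

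Genes whose normalized count averaged at least 10 were tested with edgeR 4.0.16 (quasi-likelihood F test, TMM) in R 4.3.3 on the 6 samples of each comparison, or on all 12 for the average H3.1K27M effect, with Benjamini-Hochberg adjustment over all genes tested and a threshold of 0.05. DESeq2 1.42.0 was an alternative, and the others were its size factors in edgeR, no filter, the replicate block, all 12 samples in one fit and leaving out each replicate. A two-sided exact permutation test of 3 samples against 3 cannot give a p under 0.1, so the tests used estimate each gene's spread with help from all genes. The standard errors of the edgeR values were derived from its F test, as the absolute log2 fold change over the square root of F. Both tools were run on simulated data first, which checks the scripts and not the calls. Symbols, positions and exon lengths came from GENCODE M21 and promoter windows from RefSeq.

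The 10 genes and the lists (markers, BMP targets, paralogs) were chosen with earlier results of these data known. Named beside the 10 genes were those higher in DESeq2 in both R206H comparisons, the 5 most similar profiles by Pearson correlation (pseudocount 0.5), *Acvr1*, *Id1*, *Smad6*, and up to 8 BMP targets and 8 paralogs past the threshold. *Disp1*, *Disp2*, *Diras1*, *Mctp2*, *Bmper*, *Msx1*, *Msx2*, *Hey1*, *Aplnr*, *Sod3*, *C1qa*, *P2ry12*, *Map2*, *Olig1*, *Olig2*, *Nes* and *Vim* were named after their values were seen. One paralog that the rule names is not reported here.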

Additional observations from a re-analysis of the deposited data

How the results depend on the processing

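Of 589 values of the 10 genes under alternatives, 544 kept their direction and their side of the threshold, 31 passed it anew, 9 no longer passed and 5 changed sign. For single genes, the fit of all 12 samples was added after seeing the data, as were the values of the marker, BMP target and paralog lists with a replicate left out. The sign changes were those of *Stum* for R206H without H3.1K27M, to -0.4018 without *ACVR1* WT replicate 1 and -0.1733 without *ACVR1* R206H replicate 2 (highest 0.7126), of *Slc6a6* for H3.1K27M in *ACVR1* WT, to 0.1734 without *ACVR1* WT replicate 1, and of *Disp3* for H3.1K27M in *ACVR1* WT, to -0.02873 without *ACVR1* WT replicate 3 and -0.01024 without *ACVR1* WT and H3.1K27M replicate 2 (highest 0.2715). The number of genes called for R206H without H3.1K27M was 0 in edgeR, 26 in DESeq2, 11 with all 12 samples in one fit and 0 to 3485 when a replicate was left out, the highest without *ACVR1* WT replicate 1. With H3.1K27M it was 3185, with 440 in the fit of all 12 samples and 1915 to 2966 when a replicate was left out, lowest without *ACVR1* R206H and H3.1K27M replicate 3 and next, at 2015, without *ACVR1* WT and H3.1K27M replicate 2, and all 10 genes were called higher in each. For H3.1K27M in *ACVR1* WT cells it was 3533, with 6335 in the fit of all 12 samples and 1037 to 8115 when a replicate was left out, the highest without *ACVR1* WT replicate 1. The average H3.1K27M effect gave 7420 to 10061 and the effect in *ACVR1* R206H cells 7589 to 8350 when a replicate was left out. The cause of these shifts was not tested.

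Whether the shared replicate numbers pair the samples could not be decided here, because differently numbered samples were not compared. The correlation of deviations between same-numbered *ACVR1* WT and *ACVR1* R206H samples was 0.314, 0.418 and -0.14 without H3.1K27M and -0.0516 to 0.0916 with it. With the replicate block the number of genes called for H3.1K27M in *ACVR1* WT cells was 2023, and the block gave 0, 3335, 8189 and 8606 genes for R206H without and with H3.1K27M, the average H3.1K27M effect and H3.1K27M in *ACVR1* R206H cells. Depth limits *Inpp5j*, with 4 to 15 counts in each *ACVR1* WT sample, where 3 counts correspond to 0.155 CPM in the smallest library.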

Other observations

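Outside the 10 genes, 15 others were higher with *ACVR1* R206H in both backgrounds by DESeq2, out of 23 such genes among 14767 tested in both (0.156%). They share the control samples and the tests with the 10 genes and are given as values. *Acvr1* and *Id1* were among them. Several encode secreted or matrix proteins. The WNT inhibitor *Wif1* had log2 fold changes of 1.88 ± 0.383 without and 2.97 ± 0.140 with H3.1K27M (edgeR, n = 3 per group), and follistatin (*Fst*), which binds activins and some BMPs, had 1.32 ± 0.218 and 1.06 ± 0.0971. The protease inhibitor *A2m* had 0.84 ± 0.0928 and 0.59 ± 0.0527, the brain proteoglycan neurocan (*Ncan*) 0.88 ± 0.219 and 1.25 ± 0.0510, *Scube3* 1.18 ± 0.250 and 1.13 ± 0.120, *Podn* 0.78 ± 0.155 and 0.86 ± 0.0660, and *Ecm1* 0.64 ± 0.115 and 0.76 ± 0.0584. *Ncan* was 2035, 1588 and 1209 CPM in *ACVR1* WT and 5678, 6212 and 6324 CPM in *ACVR1* R206H and H3.1K27M.

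Among intracellular proteins, *Cidea*, a lipid droplet protein, had 2.45 ± 0.484 without and 4.02 ± 0.209 with H3.1K27M, on 6, 8 and 24 counts in *ACVR1* WT. *Selenom* had 1.15 ± 0.209 and 2.17 ± 0.121, and *Socs3*, a feedback inhibitor of JAK-STAT signalling, had 0.78 ± 0.149 and 0.57 ± 0.0786. *Cpne2* (0.55 and 0.55), *Ndrg4* (0.50 and 0.45) and *Pcx* (0.46 and 0.37), the pyruvate carboxylase gene, had the smallest differences of the 15. *Socs3* was the gene of the 15 that was lower with H3.1K27M on average, at -0.53 ± 0.0898 (adjusted p = 0.0005, edgeR), while the others were higher, *A2m* by 1.86 ± 0.0608 and *Scube3* by 1.93 ± 0.147.

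*Aplnr* and *Sod3* were the genes that passed DESeq2 upward without H3.1K27M and not with it. *Aplnr*, the apelin receptor, had 0, 4 and 14 counts in *ACVR1* WT and 85, 51 and 68 in *ACVR1* R206H, and had too few counts to be tested with H3.1K27M. There it had no count in any *ACVR1* WT sample, which allows up to 3 counts per library, and 23, 14 and 19 counts in the *ACVR1* R206H samples, again without overlap. *Sod3*, the extracellular superoxide dismutase, had a log2 fold change of 0.42 ± 0.0749 without and 0.012 ± 0.0568 with H3.1K27M. Whether these differences differ from each other was not tested.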
